A study of Homo sapiens with 6 samples.

Results

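The endoplasmic reticulum (ER) folding and unfolded protein response genes were followed in U2932, a lymphoma line of the ABC type of diffuse large B-cell lymphoma (ABC-DLBCL). The members were chosen by symbol, as 54 of the 20667 genes in each library, and all 54 were found. Of these, 53 passed the filter on low values, which asked for an FPKM of 1 or more in 3 or more libraries. ERO1LB, an oxidase that recharges disulfide isomerases, did not pass and had a scaled FPKM between 0.738 and 1.82. FPKM relate the fragments of a gene to its transcript length and to all mapped fragments of the library, so levels of different genes can be set side by side per length of transcript, and scaled FPKM are the deposited values divided by a factor for each library.

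Both groups were stable U2932 lines made by lentiviral infection, cell sorting and puromycin selection, with turbo-GFP as the vector's reporter. ROCK2 KD cells carried an shRNA against ROCK2, a protein kinase, and Scr shRNA cells carried a scrambled shRNA. Each group had 3 RNA-seq libraries of total RNA, numbered 1 to 3 in both. The labels do not say whether they came from separate infections or cultures, or whether a line is 1 clone. The p-values of the main fit rest on how differences between same-numbered libraries vary over the 3 numbers. This spread may be technical.

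Proteins bound for the cell surface or for secretion enter the ER through the SEC61 channel, lose their signal peptide, receive N-glycans and fold with the help of chaperones and disulfide isomerases. Proteins that fail to fold are returned to the cytosol and degraded. When unfolded proteins accumulate, the sensors IRE1 (gene ERN1), ATF6 and PERK (gene EIF2AK3) start the unfolded protein response, which raises many of these genes through the factors XBP1, cleaved ATF6 and ATF4. Plasma cells, which secrete antibody, are known for a large ER and for high XBP1 activity.

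ROCK2, the targeted gene, had scaled FPKM of 3.50, 4.63 and 1.14 in ROCK2 KD replicates 1, 2 and 3, and 5.50, 6.21 and 5.30 in the Scr shRNA libraries. It was lower in the ROCK2 KD library of every pair and the groups did not overlap. The log2 difference was −0.81 (SE 0.23, 3 pairs) with an adjusted p of 0.801, so the difference did not pass the test over all genes. The FPKM of a library summed to between 208289 and 480612, lowest in both replicate 1 libraries. The read depth is not given by FPKM, and steps between the smallest values put it at 71.5% to 92.7% of that of Scr shRNA replicate 3 in the other libraries. The summed scaled FPKM of 6 B-cell markers was 569, 1276 and 1056 in ROCK2 KD replicates 1 to 3 and 402, 1298 and 1180 in Scr shRNA, so both replicate 1 libraries stood apart in these markers as well as in their deposited level. Of the 5 T-cell markers none exceeded 0.964, with 2 at 0 in every library, and of the 5 myeloid markers none exceeded 0.640, with 1 at 0 in every library. The 5 stromal and epithelial markers summed to between 2.70 and 6.0, led by EPCAM.

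Promoters of this pathway carry sequences named after ER stress, and a few are shown because the genes behind them are the best known readouts of the response and because the differences of genes with and without them are given further on. The ER stress response element (ERSE) was searched as CCAAT and CCACG with any 9 bases between them, the shorter ERSE-II as ATTGG and CCACG with any 1 base between them, and the core of the XBP1 and ATF6 element (UPRE core) as TGACGTGG, each on both strands, in the window from 250 bases before to 50 bases after the start of each gene. The windows are RefSeq sequences of GRCh38.p14 for 27305 genes, of which 47 were members. The lines give the 250 bases before the start, 5′ to 3′ on the strand of the gene, with the fixed bases of each match in capitals. A match on the opposite strand reads as its reverse complement (CGTGG and ATTGG for ERSE). ERSE is marked in HSPA5, HSP90B1 and CALR, ERSE-II in HERPUD1 and SDF2L1, and the UPRE core in TXNDC5.
HSPA5, chr9:125241344-125241593, minus strand: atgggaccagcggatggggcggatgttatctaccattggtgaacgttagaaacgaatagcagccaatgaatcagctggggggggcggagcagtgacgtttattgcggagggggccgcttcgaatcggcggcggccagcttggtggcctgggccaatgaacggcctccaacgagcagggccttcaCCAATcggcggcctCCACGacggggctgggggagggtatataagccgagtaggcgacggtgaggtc
HSP90B1, chr12:103930160-103930409, plus strand: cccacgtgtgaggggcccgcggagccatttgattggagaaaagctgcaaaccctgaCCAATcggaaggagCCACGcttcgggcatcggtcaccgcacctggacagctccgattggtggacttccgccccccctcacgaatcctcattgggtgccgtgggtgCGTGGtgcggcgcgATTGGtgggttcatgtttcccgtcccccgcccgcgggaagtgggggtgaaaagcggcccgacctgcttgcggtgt
CALR, chr19:12938359-12938608, plus strand: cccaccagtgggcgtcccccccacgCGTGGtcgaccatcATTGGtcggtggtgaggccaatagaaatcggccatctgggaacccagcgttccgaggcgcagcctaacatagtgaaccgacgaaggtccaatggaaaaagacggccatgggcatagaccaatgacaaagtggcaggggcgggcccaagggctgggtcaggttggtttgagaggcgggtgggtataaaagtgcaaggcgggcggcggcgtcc
HERPUD1, chr16:56931892-56932141, plus strand: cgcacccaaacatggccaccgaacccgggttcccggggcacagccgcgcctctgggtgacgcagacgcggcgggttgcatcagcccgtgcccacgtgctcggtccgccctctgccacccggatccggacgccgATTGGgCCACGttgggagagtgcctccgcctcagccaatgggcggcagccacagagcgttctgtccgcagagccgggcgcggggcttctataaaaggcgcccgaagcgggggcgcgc
SDF2L1, chr22:21642052-21642301, plus strand: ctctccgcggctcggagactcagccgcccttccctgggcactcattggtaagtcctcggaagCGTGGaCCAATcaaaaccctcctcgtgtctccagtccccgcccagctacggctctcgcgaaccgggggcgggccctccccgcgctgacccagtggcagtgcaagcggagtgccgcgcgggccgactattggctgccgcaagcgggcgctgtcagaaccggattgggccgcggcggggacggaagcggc
TXNDC5, chr6:7910078-7910327, minus strand: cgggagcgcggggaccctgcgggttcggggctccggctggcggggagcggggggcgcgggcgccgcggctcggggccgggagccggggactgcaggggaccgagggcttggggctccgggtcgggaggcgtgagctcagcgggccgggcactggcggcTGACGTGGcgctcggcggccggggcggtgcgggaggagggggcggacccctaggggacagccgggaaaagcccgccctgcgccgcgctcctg

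ERSE was present in 7 of the 47 member windows (14.9%), which were those of HSPA5, HSP90B1, CALR, CANX, PDIA6, ERO1LB and CRELD2, and in 25 of the 27305 genes overall (0.0916%). ERSE-II was present in 3 member windows, of HYOU1, SDF2L1 and HERPUD1, and in 19 overall (0.0696%). The UPRE core was present in 5 member windows, of HYOU1, TXNDC5, SEC62, SSR3 and SSR4, and in 253 overall (0.927%). A match is a run of letters and not a shown binding site. PDIA3, DERL1, DERL3, SPCS1, RPN1, STT3B and SEC24D had no window in the table. For TXNDC5, which has 2 windows, the one with the match is shown.

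The members spanned a wide range of levels in Scr shRNA cells. Of those tested, ERN1 was among the low ones, with a scaled FPKM of 4.03 ± 1.01 (SD, n = 3). SEC11C was among the high ones at 2282 ± 600, and ERO1LB, which was not tested, averaged 1.12. SEC11C, a catalytic subunit of the signal peptidase (hg19 chr18:56807098-56826064), ranked 8 of all 20667 genes by mean scaled FPKM in Scr shRNA. It read 1889, 2173 and 3293 in ROCK2 KD replicates 1 to 3 and 1598, 2535 and 2715 in Scr shRNA. SEC11A, the other catalytic subunit, read 54.2, 51.0 and 76.6 in ROCK2 KD and 56.1, 52.8 and 54.8 in Scr shRNA. The 2 subunits thus lay 28.5-fold to 49.6-fold apart in the same library, with no overlap. The 3 other members of the peptidase stayed far below SEC11C, with SPCS1 between 48.2 and 123, SPCS2 between 36.8 and 68.4 and SPCS3 between 48.3 and 95.6.

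After SEC11C, the highest members by mean scaled FPKM in Scr shRNA were CALR, a lectin chaperone, at 437 ± 141, the small channel subunit SEC61B at 364 ± 169 and P4HB, a disulfide isomerase, at 264.8 ± 21.01 (SD, n = 3 each). SEC61G, another small channel subunit, lay between 186 and 363, and HSPA5 (BiP), the HSP70 chaperone of the ER lumen, averaged 227 ± 28.1 in Scr shRNA and ranked 211. These neighbours in the order lay within their spread of each other. SEC61A1, which forms the channel itself, averaged 116.6 ± 20.96, and SEC61B exceeded it 1.998-fold to 4.19-fold in every library. Of the 2 catalytic subunits of the oligosaccharyltransferase, STT3B exceeded STT3A in every library, by 1.46-fold to 2.11-fold. The sensors were low, with ERN1 between 2.72 and 5.64 and ATF6 between 5.96 and 6.81 in the 6 libraries.

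**Figure D1:**
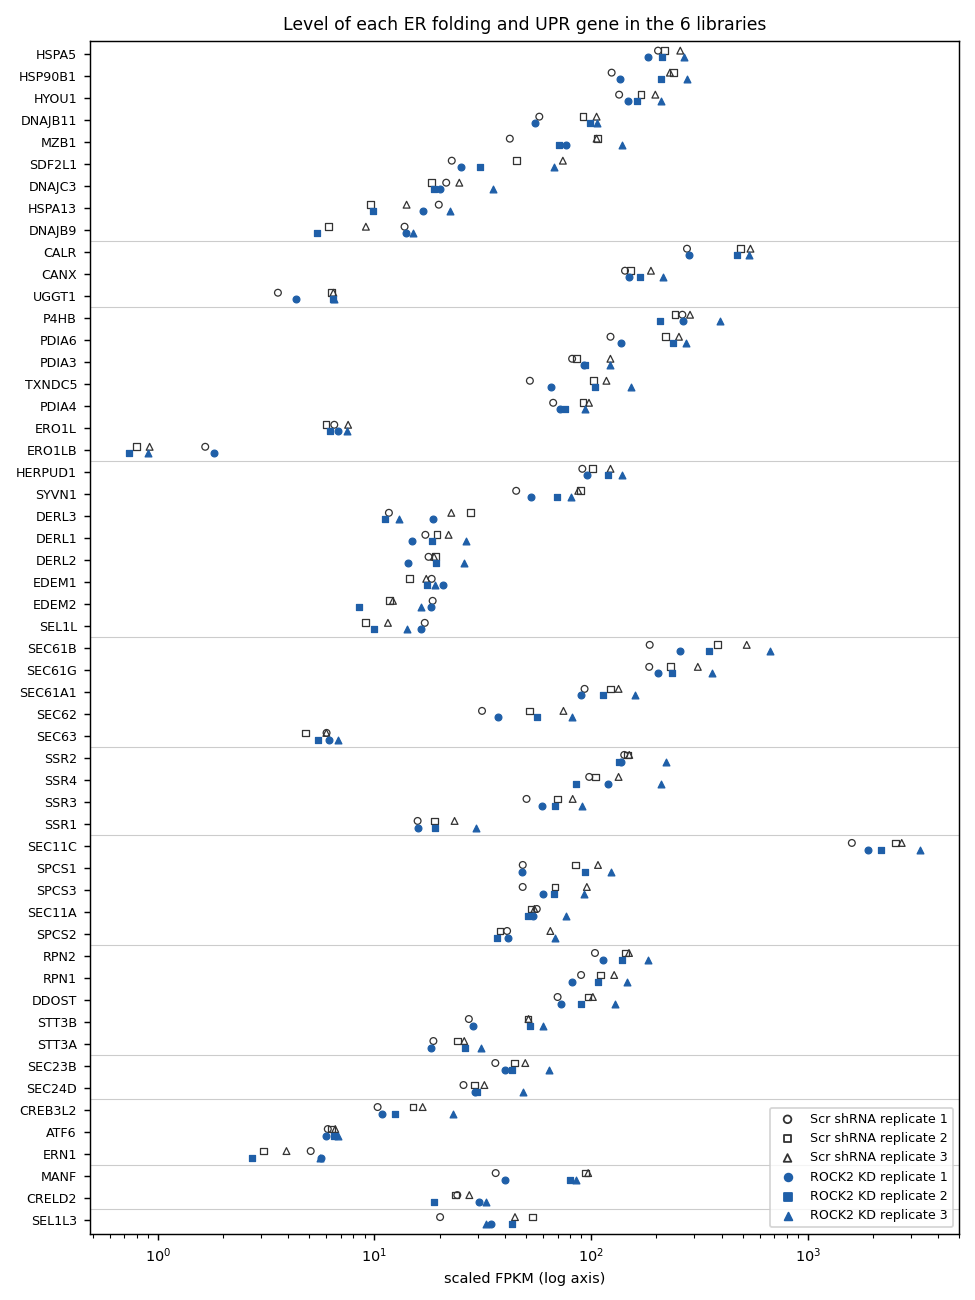
Scaled FPKM (log axis) of the 54 members in the 6 libraries, ordered by role with lines between roles; open symbols are Scr shRNA, filled ones ROCK2 KD, and circles, squares and triangles are replicates 1, 2 and 3. SEC11C stands apart from the other members at 1598 to 3293, and for most genes the filled and open symbols of 1 shape lie closer together than the shapes do.

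The main comparison asked whether these genes differed in ROCK2 KD cells. None of the 53 members tested passed an adjusted p of 0.05 in limma with the replicate number as a block, beside 0 of all 10526 genes (0%). At an unadjusted p under 0.05 there were also 0 members, beside 573 genes overall (5.44%, with 3.14% higher and 2.3% lower). The lowest adjusted p of a member was 0.913 (TXNDC5, unadjusted 0.0626). The 95% confidence intervals of the members' log2 differences ran from −1.20 at the lowest bound to 0.79 at the highest.

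The fitted differences lay above 0 in 44 of the 53 members and below 0 in 9, while 49.4% of all genes and 59.2% of the 816 genes at or above the members' median level lay above 0. The median over the members was 0.10 on the log2 scale, beside −0.0022 over all genes and 0.02 over the 816 genes of high level. The pairs did not share this. The median of the members was 0.08 in replicate 1, −0.04 in replicate 2 and 0.22 in replicate 3, and 38, 22 and 43 members were higher in ROCK2 KD, beside 52%, 49.9% and 50% of all genes. Replicate 2 thus lay on the other side of 0, and without replicate 3 the median over the members was 0.01. In all 3 pairs 12 members were higher (UGGT1, STT3B, SSR1, SEC63, SEC61G, CANX, PDIA6, SEC62, HERPUD1, EDEM1, TXNDC5 and SEC24D), which is 22.6% beside 13.1% of all genes and 17.9% of the 816 genes of high level. In all 3 pairs 0 members were lower, beside 12% of all genes and 7.23% of those 816. The groups overlapped in each of the 53 members, and were apart in 1.68% of all genes.

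**Figure D2:**
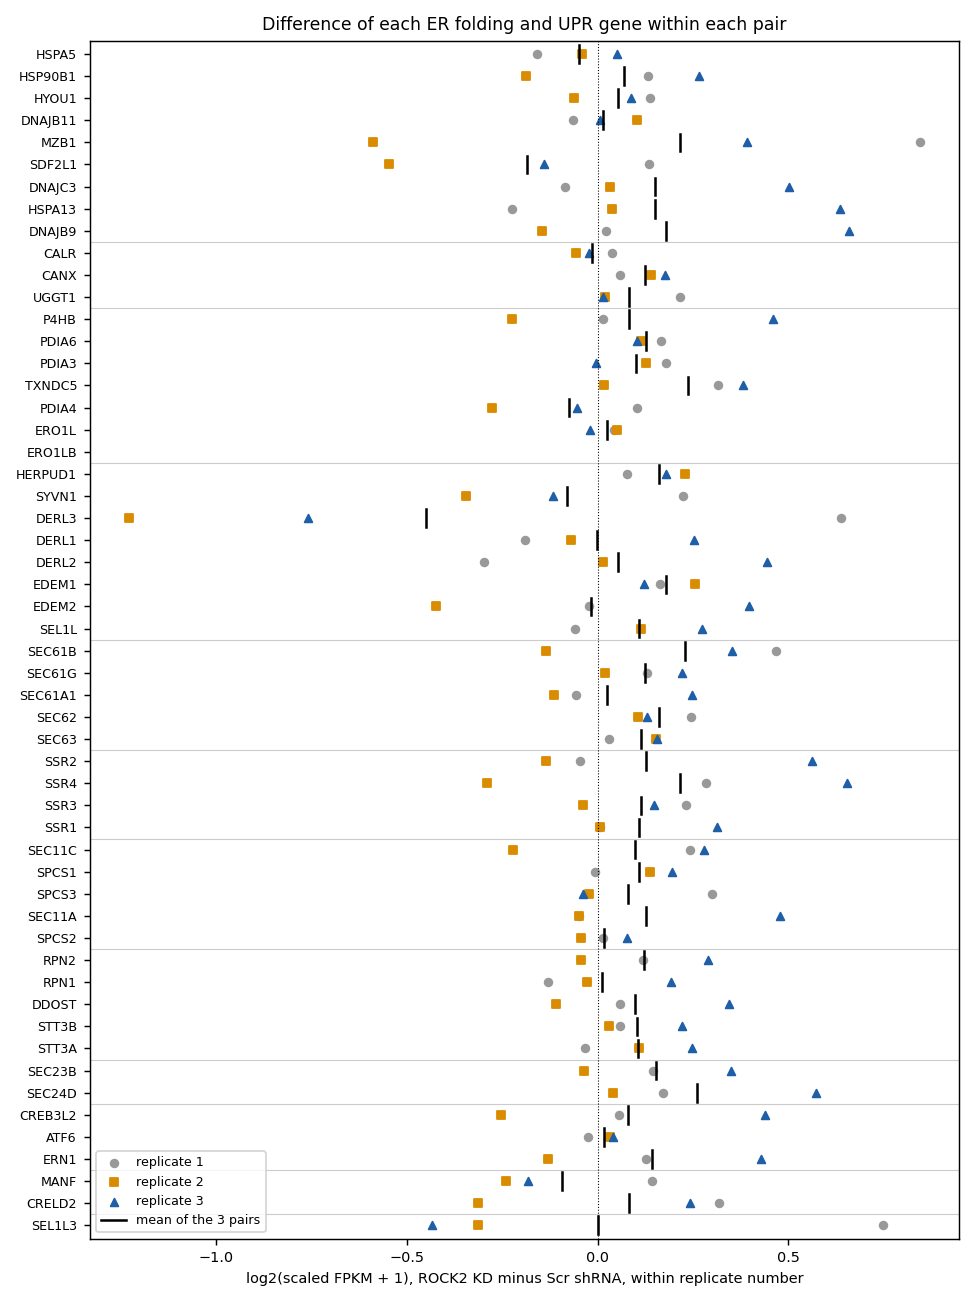
Log2 difference of scaled FPKM + 1, ROCK2 KD minus Scr shRNA, of each member within replicates 1 (circles), 2 (squares) and 3 (triangles), with the mean of the 3 pairs as a bar. Bars lie near 0, with 44 of 53 to the right, and the triangles lie mostly to the right while the squares lie on both sides.

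Among the HSP70 and HSP90 chaperones and their helpers, 7 of 9 lay above 0, with a median log2 difference of 0.07, and 0 passed the test. HSPA5, which binds unfolded chains and holds the sensors inactive, read 183, 213 and 267 in ROCK2 KD replicates 1 to 3 and 204, 219 and 258 in Scr shRNA. The groups overlapped throughout and replicate 3 was highest in both. Its log2 difference was −0.05 (SE 0.09, 95% confidence interval −0.27 to 0.17, limma adjusted p = 0.991). HSP90B1 (GRP94), the HSP90 of the ER, read 136, 211 and 278 in ROCK2 KD and 124, 240 and 231 in Scr shRNA, with replicate 1 lowest in both groups. The log2 difference was 0.07 (SE 0.11).

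SDF2L1, a partner of BiP in folding, read 25.1, 30.7 and 67.1 in ROCK2 KD and 22.7, 45.3 and 74.1 in Scr shRNA. It was lower in the pairs of replicates 2 and 3 and higher in that of replicate 1, with a log2 difference of −0.18 (SE 0.14, limma adjusted p = 0.965), which was −0.0035 without replicate 2. MZB1, a B-cell and plasma-cell partner of GRP94 in antibody assembly, read 76.5, 70.9 and 139 in ROCK2 KD and 42.2, 107 and 106 in Scr shRNA. The pairs went different ways, with log2 differences of 0.85, −0.59 and 0.39, and their mean was 0.22 (SE 0.24). HSPA13, a relative of BiP, and DNAJB9 (ERdj4), a co-chaperone of BiP, each had a pair difference above 0.6 in replicate 3 and between −0.23 and 0.04 in the others. HYOU1, which exchanges the nucleotide of BiP, and the co-chaperones DNAJB11 and DNAJC3 had log2 differences of 0.05, 0.02 and 0.15.

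Of the lectin chaperones, which hold glycoproteins while they fold, CALR read 284, 470 and 536 in ROCK2 KD and 277, 489 and 544 in Scr shRNA. These values were close within each pair, with a log2 difference of −0.01 (SE 0.09, 95% confidence interval −0.22 to 0.19). CANX, its membrane-bound counterpart, read 150, 168 and 214 in ROCK2 KD and 143, 153 and 189 in Scr shRNA, higher in every pair by a mean of 0.13 on the log2 scale (SE 0.09, limma adjusted p = 0.956). UGGT1, which tags misfolded glycoproteins for another round, was between 3.58 and 6.54.

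Of the 6 disulfide isomerases and oxidases tested, 5 lay above 0. TXNDC5 (ERp46), a disulfide isomerase abundant in plasma cells, read 65.2, 104 and 154 in ROCK2 KD and 52.2, 103 and 118 in Scr shRNA. It was higher in every pair, by log2 differences of 0.32, 0.02 and 0.38, with a mean of 0.24 (SE 0.11, 95% confidence interval −0.02 to 0.49), and the groups overlapped. P4HB (PDI) read 267, 209 and 394 in ROCK2 KD and 264, 244 and 286 in Scr shRNA, so replicate 3 alone set its log2 difference of 0.08 (SE 0.14), which was −0.10 without that pair. PDIA4 (ERp72) read 71.8, 75.6 and 94.2 in ROCK2 KD and 66.8, 91.8 and 97.8 in Scr shRNA. Its groups overlapped and its log2 difference was −0.08 (SE 0.11). PDIA3, PDIA6 and ERO1L had log2 differences of 0.10, 0.13 and 0.03.

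Of the 8 genes of ER-associated degradation, 4 lay above 0 and 4 below. DERL3 (hg19 chr22:24176690-24181315), a channel-like protein that passes misfolded glycoproteins to the cytosol, had the lowest difference of all members and the widest spread between pairs. It read 18.7, 11.2 and 12.9 in ROCK2 KD replicates 1 to 3 and 11.7, 27.7 and 22.6 in Scr shRNA. ROCK2 KD was thus the higher library in replicate 1 and the lower one in replicates 2 and 3, with log2 differences of 0.64, −1.23 and −0.76. The mean was −0.45 (SE 0.32, 95% confidence interval −1.20 to 0.30, limma adjusted p = 0.956). Without replicate 1 it was −0.99, and DERL3 then passed the test with a limma adjusted p of 0.0212, as the 1 member among 51 genes called in that fit of 4 libraries. It was −0.061 without replicate 2 and −0.29 without replicate 3, neither past the test (limma adjusted p of 0.999 and 1.0). Its family members DERL1 and DERL2 had log2 differences of −0.003 and 0.05.

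SYVN1 (HRD1), the ubiquitin ligase of the pathway, read 52.8, 69.9 and 80.4 in ROCK2 KD and 45.1, 89.2 and 87.2 in Scr shRNA, with a log2 difference of −0.08 (SE 0.13) and pairs on both sides of 0. SEL1L, the adaptor of SYVN1, read 16.4, 9.92 and 14.2 in ROCK2 KD and 17.1, 9.10 and 11.5 in Scr shRNA, with a log2 difference of 0.11 (SE 0.11). Replicate 1 of SEL1L was the highest library in both groups, unlike in most members. HERPUD1, a membrane protein that assembles the ligase complex, read 96.2, 119 and 139 in ROCK2 KD and 91.1, 102 and 123 in Scr shRNA. It was higher in every pair, by a mean log2 difference of 0.16 (SE 0.09, limma adjusted p = 0.956), and the groups overlapped. EDEM1, which trims mannose from misfolded glycoproteins, was also higher in every pair (log2 difference 0.18), and EDEM2 was on both sides of 0 (−0.02).

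All 5 members of the SEC61 translocon, all 4 of the TRAP complex that sits beside it, all 5 of the signal peptidase and all 5 of the oligosaccharyltransferase had fitted differences above 0, with medians of 0.12, 0.12, 0.10 and 0.10 on the log2 scale, and 0 of them passed the test. The medians of these same 4 groups in the pair of replicate 2 were 0.02, −0.09, −0.04 and −0.03. SEC61A1 read 89.7, 113 and 159 in ROCK2 KD and 93.3, 123 and 134 in Scr shRNA, higher in replicate 3 only, with a log2 difference of 0.03 (SE 0.11). SEC61B read 258, 348 and 668 in ROCK2 KD and 186, 383 and 523 in Scr shRNA. It was higher in replicates 1 and 3 and lower in replicate 2, with a log2 difference of 0.23 (SE 0.13, limma adjusted p = 0.956). SSR4, the delta subunit of TRAP, read 120, 85.5 and 211 in ROCK2 KD and 98.01, 105 and 134 in Scr shRNA, with the same split of pairs and a log2 difference of 0.22 (SE 0.17), which was 0.0054 without replicate 3. The other subunits of these complexes had log2 differences between 0.01 (RPN1) and 0.16 (SEC62).

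SEC24D, a cargo-selecting subunit of the COPII coat that buds vesicles from the ER, had the highest fitted difference of all members. It read 29.1, 29.7 and 48.3 in ROCK2 KD and 25.8, 28.9 and 32.2 in Scr shRNA, so it was higher in every pair while the groups overlapped. The log2 difference was 0.26 (SE 0.13, 95% confidence interval −0.04 to 0.56, limma adjusted p = 0.932), and it was 0.11 without replicate 3 and 0.37 without replicate 2. SEC23B, its partner in the coat, had a log2 difference of 0.15.

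Of the stress sensors, ERN1 (IRE1), the kinase and RNase that splices XBP1, read 5.64, 2.72 and 5.64 in ROCK2 KD and 5.08, 3.07 and 3.93 in Scr shRNA. The groups overlapped and replicate 2 was lowest in both, with a log2 difference of 0.14 (SE 0.14). ATF6 had the narrowest range of the named genes, with 5.96, 6.497 and 6.81 in ROCK2 KD and 6.09, 6.33 and 6.59 in Scr shRNA and a log2 difference of 0.02 (SE 0.11). CREB3L2, a membrane-bound factor of the same type, had a log2 difference of 0.08. MANF, a secreted factor released under ER stress, read 40.1, 79.8 and 85.3 in ROCK2 KD and 36.3, 94.5 and 96.9 in Scr shRNA, with a log2 difference of −0.09 (SE 0.11) and pairs on both sides of 0. CRELD2, also secreted, and SEL1L3, a relative of SEL1L, had log2 differences of 0.08 and 0.0001, the latter from pairs at 0.75, −0.31 and −0.43.

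**Figure D3:**
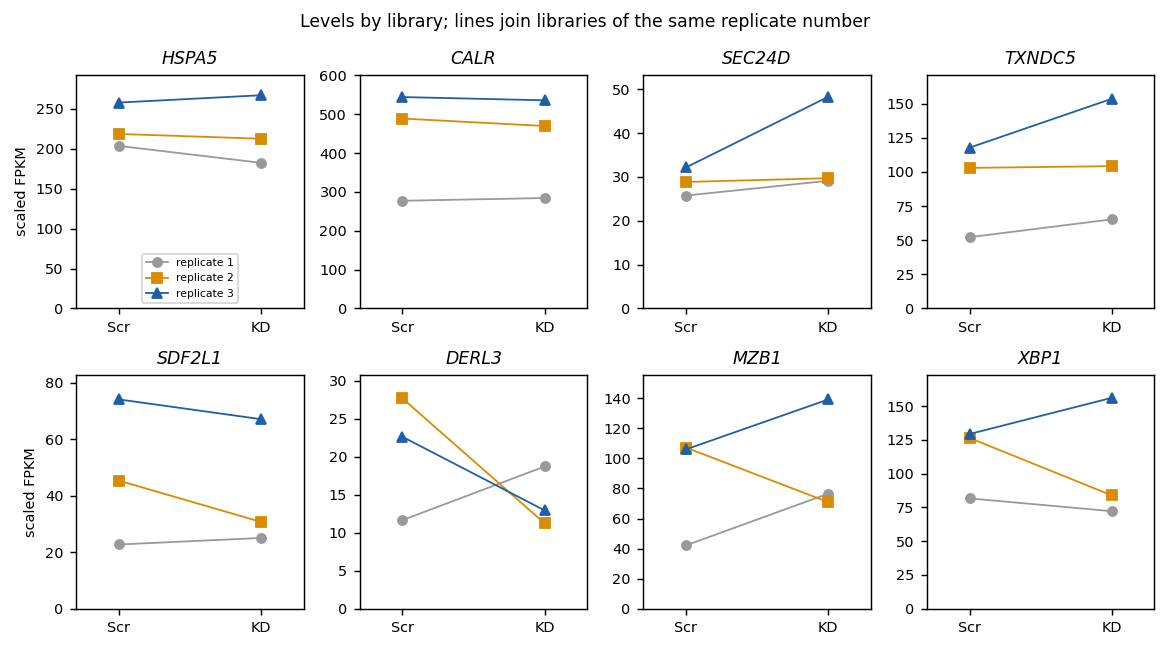
Scaled FPKM (linear axes from 0) of 8 genes in each library, with Scr shRNA on the left, ROCK2 KD on the right and a line for each replicate number. HSPA5 and CALR run nearly flat, DERL3 is higher in ROCK2 KD in replicate 1 (18.7 against 11.7) and lower in replicates 2 and 3, and MZB1 is lower in replicate 2 and higher in the other two.

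Of the factors that act downstream of the sensors and are not members, XBP1 read 72.2, 83.9 and 156 in ROCK2 KD and 81.7, 126 and 129 in Scr shRNA, with a log2 difference of −0.16 (SE 0.16, limma adjusted p = 0.970) and overlapping groups. FPKM per gene do not separate the spliced from the unspliced form of XBP1. EIF2AK3 (PERK) read 7.92, 8.44 and 9.78 in ROCK2 KD and 8.19, 8.38 and 8.15 in Scr shRNA, with a log2 difference of 0.07 (SE 0.11). ATF4, the factor translated when PERK acts, read 344, 238 and 210 in ROCK2 KD and 451, 251 and 257 in Scr shRNA. It was lower in every pair, by a mean log2 difference of −0.25 (SE 0.10), and had an unadjusted p of 0.0393 and a limma adjusted p of 0.902.

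Over the 78 other genes of the pathway (75 tested), 55 lay above 0 and 20 below, 0 passed the adjusted test, and 2 were at an unadjusted p under 0.05 (2.67%, below the 5.44% of all genes). Both were lower, ATF4 and CHAC1, a glutathione-degrading target of ATF4, with a log2 difference of −0.42 (limma adjusted p = 0.791). Both belong to the 15 listed genes of unfolded protein response signalling, of which they are 13.3%, above the share of all genes. The 2 secretory clients listed, IGJ (the J chain of antibodies) and IGLL5, lay at log2 differences of 0.002 and 0.23. Of the 3 genes of these lists that did not pass the filter, KDELR3 reached 1.58, and TUSC3 and TMX3 reached 0.0344 and 0.00977.

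The 9 tested members with ERSE or ERSE-II in their window had a median log2 difference of 0.07, between −0.18 (SDF2L1) and 0.16 (HERPUD1), and the 37 tested members with a window and neither element had one of 0.11. Of these 9 members 6 lay above 0. Of the printed genes with these elements, HSPA5, CALR and SDF2L1 lay below 0 and HSP90B1 and HERPUD1 above. The 5 with the UPRE core, TXNDC5 among them, all lay above 0 with a median of 0.16, beside 0.098 in the 41 without it, and their median in the pair of replicate 2 was −0.04.

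More members differed between the replicate numbers, which both groups share, than between the groups. Of the 53 members, 41 (77.4%) differed between replicate numbers at an adjusted p under 0.05 (limma F test in the same fit), beside 57.5% of all genes and 92.3% of the 816 genes at or above the members' median level. The 2 libraries of a number shared their deviations from the means of their groups (correlations over all genes tested of 0.855, 0.785 and 0.742). What a number stands for is not said in the labels. Without replicate 3 the F test called 24 of 53 members, a smaller share than the 48.6% of all genes. In means over both groups, replicate 1 was the lowest of the 3 in 33 of the 41 members that differed (80.5%), beside 69.8% of all genes that differed and 90.3% of those of high level, so the members lay between both backgrounds. MANF, for example, was lower in both replicate 1 libraries (36.3 and 40.1) than in the 4 others (79.8 to 96.9), with a limma adjusted p of 0.000867 for the replicate number. In as-deposited FPKM the median difference over all genes, replicate 2 minus replicate 1, was a log2 of 0.70 in ROCK2 KD and 0.73 in Scr shRNA, with 84.3% and 87.3% of the genes above 0. After scaling, 39 of 53 members (73.6%) lay higher in replicate 2 than in replicate 1, beside 66.1% of all genes. The median difference was 0.26 on the log2 scale, beside 0.24 over all genes and 0.78 over the 816 genes of high level.

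Between replicates 2 and 3 the members went 1 way. Replicate 3 lay above replicate 2 in 51 of 53 members (96.2%), beside 53.7% of all genes and 67.3% of the 816 genes of high level, with a median log2 difference of 0.33, beside 0.02 over all genes and 0.12 over those 816. Within the groups the median was 0.46 in ROCK2 KD and 0.20 in Scr shRNA. In as-deposited FPKM it was 0.40 in ROCK2 KD, with 51 of 53 members above 0, beside a median of −0.02 and 47.9% above 0 over all genes. In Scr shRNA it was 0.11, with 37 members above 0, beside −0.065 and 39.6%. The 816 genes of high level had as-deposited medians of 0.02 (52.5% above 0) in ROCK2 KD and 0.05 (59.8%) in Scr shRNA, beside 96.2% and 69.8% of the members above 0. SDF2L1 and SEC61B were among the largest, at 0.90 and 0.69, and the 2 members below 0 were SEL1L3 (−0.32) and DERL3 (−0.05). Leaving out replicate 1, the F test called 9 members (beside 10.8% of all genes).

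In means over both groups, replicate 1 was the highest of the 3 in 6 members (11.3%, beside 25.3% of all genes and 3.92% of the 816 of high level). Of these, HSPA13, DNAJB9, SEL1L, EDEM2 and ERN1 passed the F test, which is 9.43% of the members, below the 12.6% of all genes and above the 2.57% of the 816 genes of high level. In ROCK2 KD alone, HSPA13 (22.4 against 16.8) and DNAJB9 were higher in replicate 3 than in replicate 1. DNAJB9 read 13.98 and 13.8 in the replicate 1 libraries of ROCK2 KD and Scr shRNA, 5.45 and 6.13 in those of replicate 2, and 15 and 9.13 in those of replicate 3. Its groups thus followed each other except in replicate 3, where ROCK2 KD was higher.

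Outside the members, 12 of the 15 listed genes of unfolded protein response signalling differed between replicate numbers (80.0%, beside 57.5% of all genes). In 7 of them replicate 1 was the highest (46.7% of the list, beside 12.6% of all genes and 2.57% of the 816 of high level). DDIT3 (CHOP), a factor induced under prolonged stress, read 85.2, 17.8 and 12.9 in ROCK2 KD and 102, 15.9 and 17.3 in Scr shRNA. PPP1R15A (GADD34), which reverses the block of translation, read 68.9, 24.3 and 24.1 in ROCK2 KD and 93.9, 18.6 and 16.5 in Scr shRNA. Both replicate 1 libraries thus stood above the 4 others in either gene (limma adjusted p of 0.000163 and 0.0010 for the replicate number). TRIB3, ATF3, CHAC1, ASNS and ATF4 were the other 5. Neither DDIT3 (log2 difference −0.17, SE 0.13) nor PPP1R15A (0.15, SE 0.19) passed the test between ROCK2 KD and Scr shRNA, and within replicate 1 both were lower in ROCK2 KD. The lower deposited level of replicate 1 moves with these values, and so do lower B-cell genes in the same libraries: the 6 markers summed to 569 and 402 there against 1056 to 1298 in the 4 others, and IRF4, a B-cell and plasma-cell factor, read 29.2 and 25.5 against 81.2 to 109.9. Their part in the replicate differences was not tested.

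**Figure D4:**
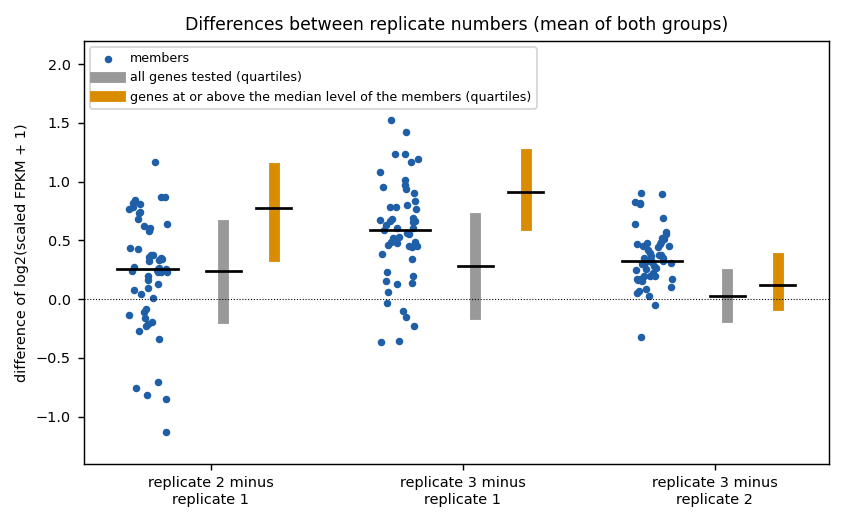
Log2 differences of scaled FPKM + 1 between replicate numbers, as means of both groups: points are the 53 members, grey boxes the quartiles of all 10526 genes, orange boxes those of the 816 genes at or above the members' median level, and bars are medians. Replicate 3 lay above replicate 2 in 51 members (median 0.33), while the members spread from −1.13 to 1.17 between replicates 1 and 2.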

How the data were processed

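RNA was measured in 6 libraries, 3 of ROCK2 KD and 3 of Scr shRNA, as grouped and numbered by the labels. Nextera libraries were sequenced as paired reads of 50 bases, aligned to hg19 with STAR 2.4.2 and quantified with Cufflinks 2.2.1, and the values used were the FPKM deposited by the authors for 20667 symbols. The study's own test used limma on normalized read counts, after ComBat had been applied against a batch effect of the replicates. Read counts were not analysed here.

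FPKM were divided by a factor per library from a trimmed mean of log ratios (0.3 of the ratios and 0.05 of the levels trimmed). Genes reaching an FPKM of 1 in 3 or more libraries (10526) entered the fit of log2(scaled FPKM + 1) in limma 3.58.1 (R 4.3.3). It held the condition and, as a block, the replicate number, used a variance trend over mean level, and adjusted p-values by Benjamini-Hochberg over all genes, with calls at 0.05. This scale understates the change of low genes. An F test in the same fit tested the replicate number. The numbers were treated as pairs because the study had corrected for a batch effect of the replicates. Computed after the fit, the correlations of same-numbered libraries (0.742 to 0.855) all exceeded those of other pairings (−0.649 to 0.0557). Tested on simulated data with 200 of 10526 genes changed, the fit recovered 0% of log2 changes of 0.5. It recovered 60% of those of 1 and 90.5% of those of 2. These shares are medians over 5 draws, and the median number of false calls in a draw was at most 4. Reads behind a value are not known, so no counting interval is given. Gene positions are from GENCODE 44 lifted to GRCh37. Tables and plots used Python 3.11.15, pandas 2.3.3, numpy 2.4.6 and matplotlib 3.10.9.

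The members, role groups and pathway lists were chosen with earlier results of these data known. Values in every library are given for members at an unadjusted p under 0.05 with 1 direction in all pairs (0 genes), the 5 largest rises and 5 largest falls, 14 well-known members, ROCK2, XBP1, EIF2AK3, ATF4, DDIT3 and PPP1R15A. SEC11C, SEC11A, DNAJB9 and, of the pathway lists, ATF6B were added after their values were seen. Alternatives varied the block, ComBat (written out in R), the pseudocount, the filter, the scaling, the trend and the replicates.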

Additional observations from a re-analysis of the deposited data

How the results depend on the processing

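Calls of members between ROCK2 KD and Scr shRNA depended on the replicates used. Without the replicate block 0 members and 0 genes overall were called and 0 members were at an unadjusted p under 0.05. With ComBat on the replicate number and no block, 296 genes overall and 0 members were called, and 9 members, all higher, were at an unadjusted p under 0.05, beside 20.2% of all genes. This fit does not count the degrees of freedom that ComBat uses. Leaving out a replicate gave 0 to 51 genes and 0 to 1 members called, and 0 to 5 members at an unadjusted p under 0.05: 3 without replicate 1 (beside 9.5% of all genes), 5 without replicate 2 (beside 5.52%) and 0 without replicate 3 (beside 3.64%). The 51 genes and the 1 member (DERL3) came without replicate 1, where SDF2L1 and SEL1L3 were also at an unadjusted p under 0.05, and the 5 came without replicate 2 (MZB1, TXNDC5, SEC61B, SSR4 and SEC24D). The median member difference lay between 0.01 (without replicate 3) and 0.14 on the log2 scale, and that of ROCK2 between −1.06 (pseudocount 0.1) and −0.43 (without replicate 3), never past the test. Between replicate numbers 27 members were called with no filter (beside 32.8% of all genes), 25 after quantile normalization (beside 41.2%), and with a replicate left out 9 (without replicate 1, beside 10.8%), 24 (without replicate 3, beside 48.6%) and 37 (without replicate 2, beside 53.4%), so the members' share was below that of all genes without replicate 3. Over the 25 named genes 14 kept their direction in every alternative and 11 changed it, each in 1 fit with a replicate left out. Without replicate 1 the direction changed for MZB1 and HSPA5. Without replicate 2 the direction changed for SYVN1, PDIA4, CALR and XBP1. Without replicate 3 the direction changed for HSP90B1, P4HB, SEC61A1, EIF2AK3 and PPP1R15A. Over the fits with a replicate left out the log2 differences were MZB1 −0.092 to 0.62, HSPA5 −0.091 to 0.013, SYVN1 −0.22 to 0.053, PDIA4 −0.16 to 0.025, CALR −0.033 to 0.0071, XBP1 −0.37 to 0.047, HSP90B1 −0.020 to 0.20, P4HB −0.097 to 0.24, SEC61A1 −0.078 to 0.096, EIF2AK3 −0.010 to 0.13, PPP1R15A −0.027 to 0.46. Of the 14 others, differences that moved by over 1.5 times ran over these fits from SEC24D 0.11 to 0.37, SEC61B 0.12 to 0.41, SSR4 0.0054 to 0.47, DERL3 −0.99 to −0.061, SDF2L1 −0.34 to −0.0035, MANF −0.20 to −0.020, SEL1L 0.034 to 0.20, ERN1 0.0051 to 0.28, ATF6 0.0072 to 0.044 and DDIT3 −0.33 to −0.045. The cause was not tested. Relative depth differed most within the pair of replicate 2 (77.5% and 92.7%).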

Other observations

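SEC11C, the highest member by level, lies on hg19 chromosome 18 near other genes of high level. Of the 10 other protein-coding genes within 1 Mb of it and in the files, 2 were among the 200 highest genes by mean scaled FPKM in Scr shRNA. They were LMAN1, a cargo receptor between the ER and the Golgi (817 ± 140, SD, n = 3, rank 71), and PMAIP1, a pro-apoptotic BCL2 family gene (430 ± 193, rank 122). MALT1, a protease of NF-kB signalling, was at 23.8 ± 4.81 in the same stretch, ZNF532 at 29.9 ± 1.85 and NEDD4L at 20.5 ± 5.19, so the level was not shared by every expressed neighbour. None of these 5 genes or SEC11C passed the test between ROCK2 KD and Scr shRNA, with limma adjusted p from 0.956 to 0.996. The stretch was examined after the level of SEC11C had been seen.

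ATF6B, the paralogue of ATF6, differed between replicate numbers. It read 20.6, 25.9 and 6.02 in ROCK2 KD replicates 1 to 3 and 16.5, 30.0 and 6.46 in Scr shRNA, so both replicate 3 libraries were the lowest (limma adjusted p of 0.000419 for the replicate number), while ATF6 itself stayed between 5.96 and 6.81.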
